A study of Mus musculus with 8 samples.

Results

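Genes that mark fat cells were followed through the aortas of 2 groups of mice: Adipoq, Lep, Retn, Plin1, Plin4, Cidec, Fabp4, Lipe, Pnpla2 and Pparg. They were chosen by name as markers of white adipocytes, not by their values, though earlier results of these data were known. They are 10 of the 23420 genes in the table, where all 10 were found, and all 10 passed the filter on low values. RNA was taken from aortas of 8 ApoE-/- mice that had been lethally irradiated, given fetal liver cells and then infused with angiotensin II (Ang II), a peptide that raises blood pressure and causes abdominal aortic aneurysms in such mice, for 28 days. The 4 mice called Ntn1-/- chimeras had received Ntn1-/- ApoE-/- cells, which lack netrin-1 (a guidance molecule), and the 4 called WT chimeras had received Ntn1+/+ ApoE-/- cells. Donors and recipients of both groups thus lacked ApoE, and only blood cells derived from the graft lacked Ntn1, while the cells of the recipient's own aorta and fat kept the gene. Each aorta gave 1 library (replicates A to D in each group), and the labels call the tissue an abdominal aortic aneurysm. The study reported aneurysms in fewer Ntn1-/- than WT chimeras, so that aneurysm and donor genotype cannot be told apart here. Beyond the label, which of these 8 aortas held an aneurysm is not given in the sources used here. No healthy or uninfused aorta was among the samples. Depth was 22485117 to 28202931 reads in genes in Ntn1-/- chimeras and 19879329 to 25083874 in WT chimeras.

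White adipocytes store triglyceride in a single large droplet, release it as fatty acids between meals and secrete hormones called adipokines, while brown adipocytes burn fat for heat. The aorta is embedded in perivascular fat, which in mice is partly of the brown kind, so that an aorta taken for RNA may carry fat cells with it. The 10 genes cover these roles: adipokines (Adipoq, Lep and Retn), proteins on the lipid droplet (Plin1, Plin4 and Cidec), a fatty acid carrier (Fabp4), the lipases that break triglyceride down (Pnpla2 and Lipe), and the nuclear receptor that drives fat cell formation (Pparg). Apart from Lep and Retn, which in mice are known mainly from white fat, they are used by brown adipocytes too.

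PPARγ, the product of Pparg, and the C/EBP factors are the regulators best known for switching these genes on. The 300 bases around each start site (250 before and 50 after it, RefSeq, build GRCm38.p6) were found for 9 of the 10 genes, in 13 windows, and searched on both strands for the C/EBP letters TTGCNNAA. These letters were in 4 of the 13 windows, at 4 of the 9 genes, against 10.8% of all 32851 windows. The 4 windows are shown 5′ to 3′ because they let the same letters be compared across a hormone, 2 droplet proteins and the receptor, and the capitals mark the matches. The Lep window is chr6:29059971-29060270 on the plus strand and the Plin1 window chr7:79732727-79733026 on the minus strand. The Pparg window is 1 of 3 for that gene, chr6:115421816-115422115 on the plus strand, and the Cidec window 1 of 2, chr6:113434715-113435014 on the minus strand.
Lep: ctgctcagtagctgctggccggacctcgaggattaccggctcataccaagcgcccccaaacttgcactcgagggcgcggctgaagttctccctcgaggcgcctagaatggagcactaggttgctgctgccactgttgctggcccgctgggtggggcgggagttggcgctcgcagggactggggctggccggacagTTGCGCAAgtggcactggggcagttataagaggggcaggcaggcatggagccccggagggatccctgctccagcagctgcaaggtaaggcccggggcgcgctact
Plin1: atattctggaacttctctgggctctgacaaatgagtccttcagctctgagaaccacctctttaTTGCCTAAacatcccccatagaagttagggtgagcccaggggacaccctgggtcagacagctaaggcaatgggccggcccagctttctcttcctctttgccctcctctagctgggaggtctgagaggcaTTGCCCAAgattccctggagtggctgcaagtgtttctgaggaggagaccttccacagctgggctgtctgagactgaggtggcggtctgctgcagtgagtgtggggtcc
Pparg: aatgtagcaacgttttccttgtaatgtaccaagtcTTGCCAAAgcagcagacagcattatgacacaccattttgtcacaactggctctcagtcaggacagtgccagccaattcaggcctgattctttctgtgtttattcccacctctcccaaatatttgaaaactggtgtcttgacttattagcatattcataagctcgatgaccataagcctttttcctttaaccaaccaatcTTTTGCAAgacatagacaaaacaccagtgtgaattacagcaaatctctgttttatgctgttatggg
Cidec: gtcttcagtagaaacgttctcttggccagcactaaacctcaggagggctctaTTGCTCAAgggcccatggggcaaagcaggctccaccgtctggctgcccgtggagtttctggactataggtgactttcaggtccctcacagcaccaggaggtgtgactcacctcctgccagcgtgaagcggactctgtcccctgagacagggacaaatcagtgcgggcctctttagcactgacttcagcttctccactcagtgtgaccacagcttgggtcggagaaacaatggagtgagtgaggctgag
The Lep match began 55 bases before the start site, at position -55, and read TTGCGCAA, which is the same on both strands. Plin1 had matches at -187 and -58, Pparg at -215 and, on the other strand, at -16, and Cidec at -198. The nuclear receptor half-site AGGTCA was in 2 of the 13 windows, both of 1 gene, against 16.3% of all windows, and TATAAA was in 1 of the 13, against 13.6%. Each match is a run of letters and not a measured binding site.

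Adipocyte genes were abundant in every aorta. The 10 genes took 0.473% to 1.0% of all reads in genes in Ntn1-/- chimeras and 0.546% to 1.02% in WT chimeras. By mean normalized reads over the 8 libraries, Fabp4 ranked 19th of all genes, Pnpla2 61st, Adipoq 116th and Cidec 126th, while Lep ranked 9644th. Per kilobase of exon, which allows genes to be compared, Fabp4 was the highest at 68681 to 172664 normalized reads per kb, above every library of the next gene, Adipoq, at 6199 to 20492. Adipoq, Cidec (4981 to 13810) and Pnpla2 (6417 to 14551) overlapped each other on this scale. Plin1 (1987 to 5116), Retn (1268 to 4972), Plin4 (2113 to 3126) and Lipe (1239 to 3088) came next, with ranges that overlapped each other. The top of the Plin1 range overlapped the bottom of that of Cidec, and Pparg (653 to 1383) overlapped the bottom of the Retn and Lipe ranges. Lep, at 17.9 to 129 normalized reads per kb, lay below all the others. Exon lengths are those of GENCODE gene models on mm9, and the gene models used for counting are not given in the sources used here.

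**Figure D1:**
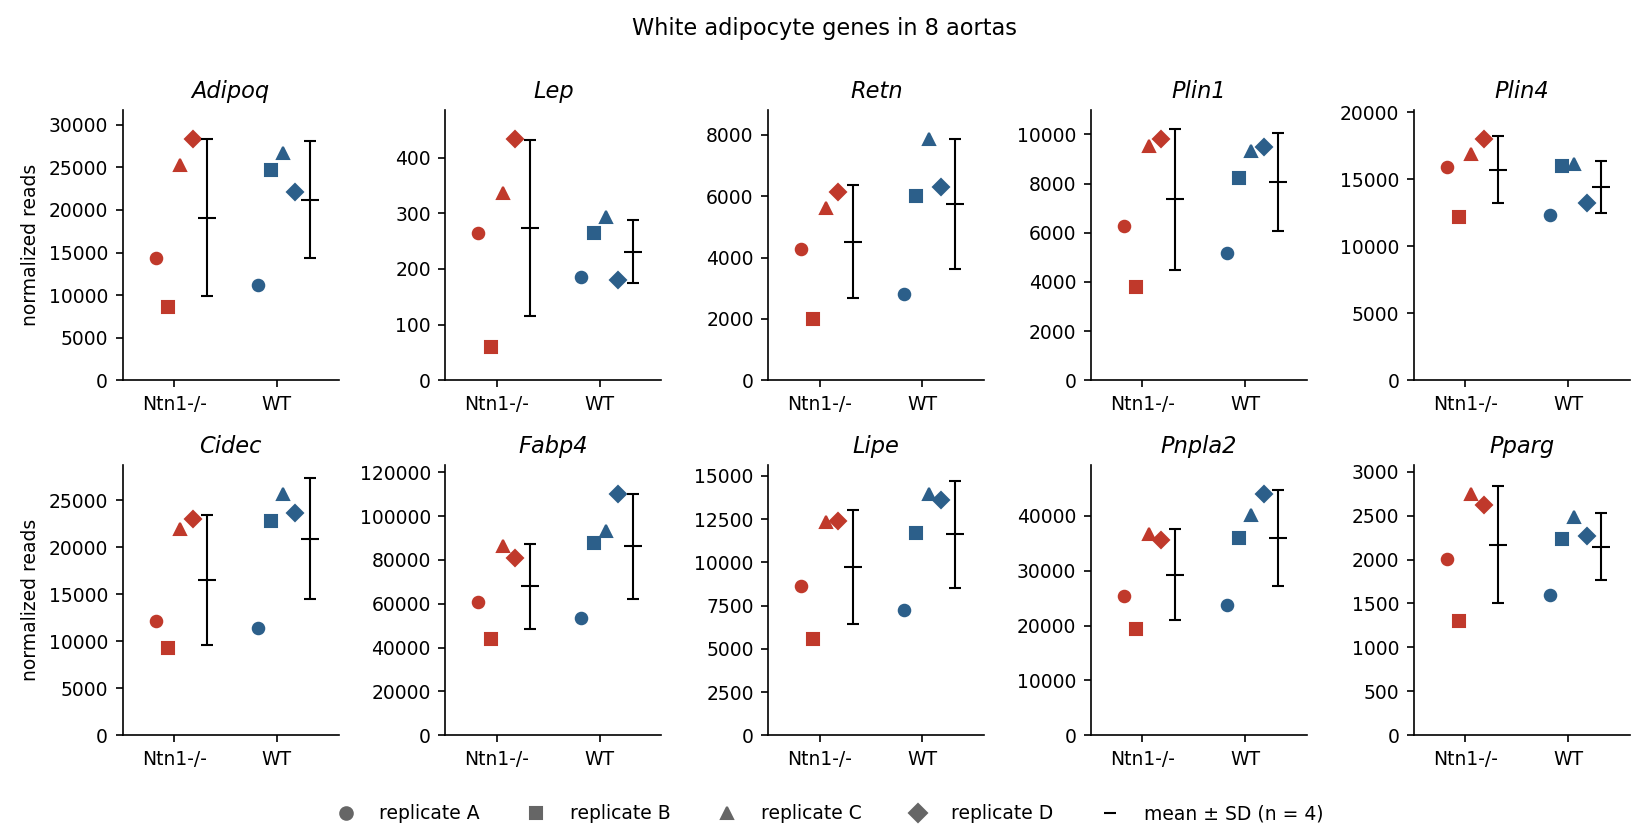
Normalized reads of each of the 10 genes (vertical axes, from 0) in the 4 Ntn1-/- and the 4 WT chimeras; each point is 1 aorta, its shape gives the replicate letter, and the black bars are mean ± SD (n = 4). Ntn1-/- replicate B is the lowest point for all 10 genes, and the groups overlap for each of them.

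The comparison of donor genotypes asked whether the loss of Ntn1 in blood cells went with another level of these genes in the aorta. None of the 10 differed between the groups beyond the spread of the libraries. With limma on log2(value + 1) and Benjamini-Hochberg adjustment over the 14931 genes tested, 0 of 10 passed an adjusted p of 0.05, as did 0% of all genes, and 0 of 10 had an unadjusted p under 0.05, against 15.6% of all genes (8.37% higher and 7.25% lower in Ntn1-/- chimeras). edgeR likewise called 0 of 10 (0% of all genes, and 16.5% unadjusted, with 0 of the 10), and DESeq2 called 0 of 10 (3.63% of all genes, 2.16% higher and 1.47% lower, and 18.1% unadjusted, with 0 of the 10). The groups overlapped at all 10 genes, whereas they did not overlap at 10.5% of all genes, 5.13% with Ntn1-/- above WT and 5.34% with Ntn1-/- below WT. The estimates were lower in Ntn1-/- chimeras for 9 of 10 genes, against 52.4% of all genes, and the median log2 fold change was -0.25, against -0.01 for all genes. The 10 genes moved together between libraries, as described below, so that their shared direction is not 10 separate observations.

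**Figure D2:**
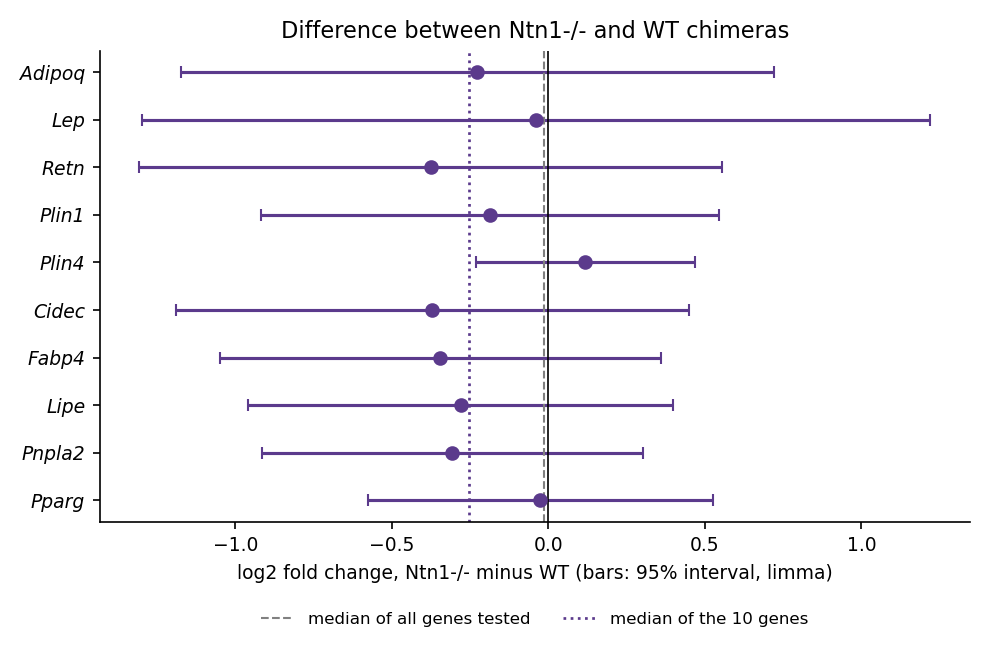
Log2 fold change of each gene, Ntn1-/- minus WT, with its 95% interval from limma (n = 4 aortas a group); the dotted line is the median of the 10 genes (-0.25) and the dashed line that of all genes tested (-0.01). Every interval spans 0.

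Adipoq encodes adiponectin, an adipokine, and lies on chromosome 16 of mm9 (23146609 to 23158101, plus strand). It had 14317, 8560, 25280 and 28299 normalized reads in Ntn1-/- replicates A to D, against 11250, 24678, 26739 and 22157 in WT replicates A to D. Both groups thus held low libraries (Ntn1-/- A and B, WT A) beside libraries of 22157 or more, and the highest and lowest aortas of all were both Ntn1-/- chimeras. Its log2 fold change was -0.23 (standard error 0.42, adjusted p = 0.826 from limma), with an interval of -1.17 to 0.72. An Adipoq change of up to 1.65-fold higher, or down to 0.443 of the WT level, would fall within that interval.

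Lep encodes leptin, the hormone that reports fat stores to the brain, and lies on chromosome 6 of mm9 (29010220 to 29023877, plus strand). It had 265, 59.9, 336 and 433 normalized reads in Ntn1-/- replicates A to D, against 185, 264, 294 and 180 in WT replicates A to D. The Ntn1-/- libraries lay on both sides of all WT libraries, and Lep spread more than any other of the 10 genes, with a highest value 7.23 times its lowest. Its log2 fold change was -0.04 (standard error 0.55, adjusted p = 0.984 from limma), while its plain mean in Ntn1-/- chimeras was 118% of that in WT chimeras, so that mean and fold change differed in sign. Without Ntn1-/- replicate B the Lep fold change was 0.58, with an unadjusted p of 0.0343 and an adjusted p of 0.363 from limma.

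Retn encodes resistin, an adipokine that opposes insulin action in mice, on chromosome 8 of mm9 (3655770 to 3660110, plus strand). It had 4289, 2002, 5604 and 6132 normalized reads in Ntn1-/- replicates A to D, against 2817, 6014, 7851 and 6300 in WT replicates A to D. The 3 lowest libraries were again Ntn1-/- B, WT A and Ntn1-/- A. Its log2 fold change of -0.38 was the lowest of the 10, with a standard error of 0.41 and an adjusted p of 0.685 from limma.

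The droplet proteins had unlike spreads between libraries. Plin1 encodes perilipin 1, which coats the droplet and holds the lipases back, and had 6284, 3807, 9545 and 9802 normalized reads in Ntn1-/- replicates A to D, against 5178, 8239, 9310 and 9491 in WT replicates A to D. Cidec, whose product fuses small droplets into large ones, had 12097, 9245, 21875 and 23005 normalized reads in Ntn1-/- replicates A to D, against 11402, 22794, 25632 and 23656 in WT replicates A to D. For both, the 3 lowest libraries were Ntn1-/- A, Ntn1-/- B and WT A, so that each group held lower and higher libraries. Plin4, a perilipin of small droplets, had 15900, 12160, 16866 and 17992 normalized reads in Ntn1-/- replicates A to D, against 12319, 16026, 16179 and 13240 in WT replicates A to D. It was the steadiest of the 10, with a highest value 1.48 times its lowest, and the one gene with a higher estimate in Ntn1-/- chimeras. Log2 fold changes were -0.19 for Plin1 (standard error 0.32), -0.37 for Cidec (0.36) and 0.12 for Plin4 (0.15), with adjusted p of 0.811, 0.648 and 0.743 from limma. Plin1 lies on chromosome 7 of mm9 (86866050 to 86877662), Cidec on chromosome 6 (113374628 to 113385754) and Plin4 on chromosome 17 (56240014 to 56249225), all on the minus strand.

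Fabp4, the fatty acid binding protein of adipocytes (also made by macrophages and capillary endothelium), had 60604, 43750, 86407 and 80750 normalized reads in Ntn1-/- replicates A to D, against 53433, 87758, 93383 and 109987 in WT replicates A to D. The highest 3 libraries were WT chimeras, but WT A was the second lowest of the 8. Its log2 fold change was -0.35 (standard error 0.31, adjusted p = 0.616 from limma, exact 2-sided permutation p = 0.286). Fabp4 lies on chromosome 3 of mm9 (10204347 to 10208576, minus strand).

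Pnpla2 encodes ATGL, which removes the first fatty acid from triglyceride, and had 25329, 19379, 36663 and 35549 normalized reads in Ntn1-/- replicates A to D, against 23685, 35898, 40136 and 43943 in WT replicates A to D. It had the smallest p of the 10 genes, at an unadjusted 0.281 and an adjusted 0.602 from limma, with a log2 fold change of -0.31 (standard error 0.27). Lipe encodes hormone-sensitive lipase, which acts on the next step, and had 8615, 5596, 12339 and 12382 normalized reads in Ntn1-/- replicates A to D, against 7235, 11683, 13950 and 13605 in WT replicates A to D. Its log2 fold change was -0.28 (standard error 0.30, adjusted p = 0.677 from limma). Both lipases had the same 3 low libraries as Adipoq, and both lie on chromosome 7 of mm9, Pnpla2 from 148641097 to 148646642 on the plus strand and Lipe from 26164546 to 26183729 on the minus strand.

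Pparg had 2008, 1295, 2744 and 2621 normalized reads in Ntn1-/- replicates A to D, against 1598, 2235, 2482 and 2264 in WT replicates A to D. Its 2 highest libraries were Ntn1-/- C and D and its lowest was Ntn1-/- B, so that the Ntn1-/- group enclosed the WT group. Its log2 fold change was -0.03, with a standard error of 0.24 and an adjusted p of 0.975 from limma, and its plain mean in Ntn1-/- chimeras was 101% of that in WT chimeras. Pparg lies on chromosome 6 of mm9 (115311239 to 115440419, plus strand).

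Across the 10 genes, exact 2-sided permutation tests of the 8 values gave p of 0.286 to 0.943, where 4 against 4 libraries allow no p below 0.0286. The 95% intervals of the fold changes reached down to between 0.404 and 0.851 of the WT level and up to between 1.23 and 2.33 times it. These intervals hold for each gene alone, without adjustment over the 14931 genes tested. They give the changes by genotype that the values allow and are not a limit of detection.

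What separated the aortas was a level shared by most of the 10 genes. Ntn1-/- replicate B was the lowest of the 8 libraries for 10 of 10 genes. Ntn1-/- A, Ntn1-/- B and WT A were the 3 lowest libraries for 8 of 10, against 10.1% of all genes tested. The exceptions were Lep and Plin4. These 3 libraries were singled out from the values of the 10 genes themselves. Their higher share among the 10 is therefore a description and no separate evidence of a shared level. The highest library was Ntn1-/- D for 4 genes, WT C for 3, WT D for 2 and Ntn1-/- C for 1. Expressed as the mean of the 10 centred log2 values, relative to the average aorta, the level was 0.880, 0.521, 1.25 and 1.31-fold in Ntn1-/- replicates A to D and 0.712, 1.18, 1.32 and 1.2-fold in WT replicates A to D. Both groups therefore held libraries on either side of the average. In bulk tissue, fewer fat cells and less RNA per fat cell cannot be told apart. The highest library of a gene had 1.48 to 7.23 times the reads of its lowest, against a median of 1.59 over all genes tested.

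**Figure D3:**
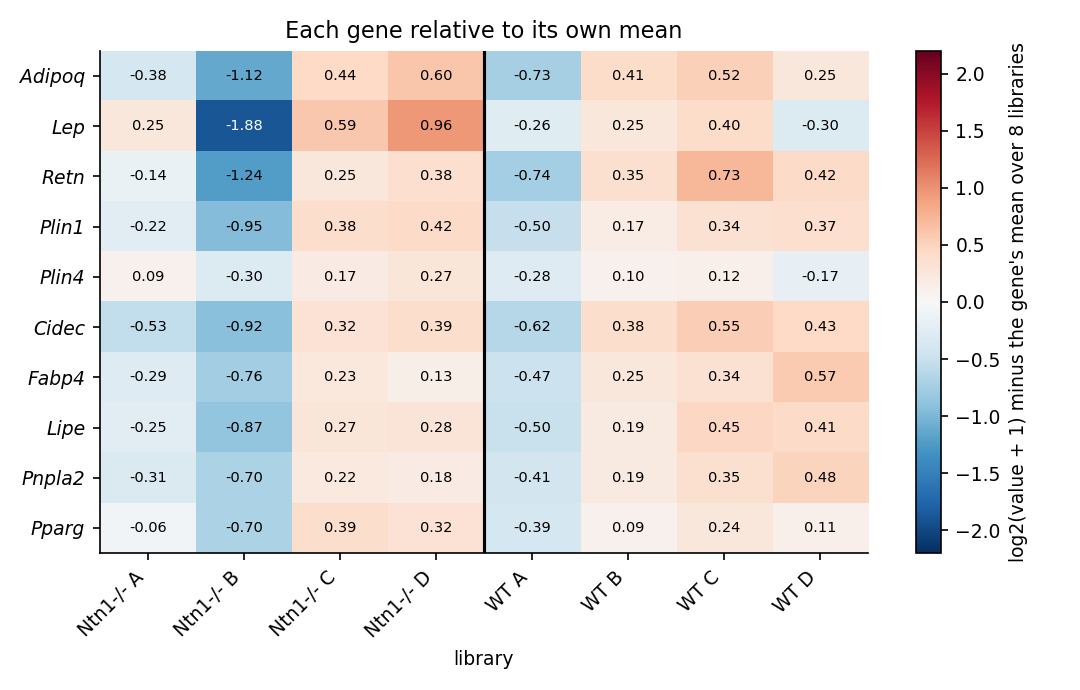
Log2(value + 1) of the 10 genes (rows) in the 8 libraries (columns, Ntn1-/- left of the line and WT right of it), each minus the gene's mean over the libraries; blue is below and red above that mean. Ntn1-/- B is blue in every row, down to -1.88 for Lep, and WT A is blue in every row.

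Departures from the shared level were small for Plin1 and large for Lep and Plin4. After the mean of the 10 genes was subtracted in each library, Plin1 lay between -0.07 and 0.11 on the log2 scale. Lep departed by 0.44, -0.93, 0.26 and 0.56 in Ntn1-/- replicates A to D and by 0.23, 0.01, -0.01 and -0.56 in WT replicates A to D. Lep was thus below the mean of the 10 genes in Ntn1-/- B and WT D, above it in Ntn1-/- A, C and D and in WT A, and close to it in WT B and C. Relative to Adipoq, Lep had 1.85, 0.70, 1.33 and 1.53% of its reads in Ntn1-/- replicates A to D and 1.65, 1.07, 1.10 and 0.814% in WT replicates A to D. Plin4 departed by 0.27, 0.65, -0.15 and -0.12 in Ntn1-/- replicates A to D and by 0.21, -0.14, -0.29 and -0.43 in WT replicates A to D. Its own lowest libraries were still Ntn1-/- B and WT A, at -0.30 and -0.28 relative to its mean on the log2 scale.

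The 12 genes outside the 10 whose profile was most like their mean were Spg21, Hsd3b7, Arxes2, Slc36a2, 1600014C10Rik, Slc25a10, Adhfe1, Tbc1d13, Pla2g16, Aldh4a1, Sema4a and Cfd, with r from 0.987 to 0.993. This Pearson r, on the log2 scale over 8 libraries, is a measure of likeness only. The same 3 libraries were the lowest for 8 of the 10 genes. Cfd encodes adipsin, an adipokine and a protease of the complement system, and had 72266, 36051, 111690 and 135307 normalized reads in Ntn1-/- replicates A to D, against 57518, 129005, 155454 and 121878 in WT replicates A to D. Pla2g16 encodes a phospholipase of adipocytes and had 4468, 3170, 6911 and 7021 normalized reads in Ntn1-/- replicates A to D, against 3970, 6530, 7592 and 6914 in WT replicates A to D. Both thus had the same 3 low libraries as Adipoq. Log2 fold changes of the 12 ran from -0.46 (Cfd) to -0.10.

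Smooth muscle markers ran the other way. The 8 markers (Acta2, Myh11, Tagln, Cnn1, Smtn, Lmod1, Des and Mylk), genes of the contractile cells of the aortic wall, stood at 1.13, 1.5, 0.956 and 0.601-fold of the average in Ntn1-/- replicates A to D and at 1.37, 0.828, 0.823 and 1.10-fold in WT replicates A to D. The library lowest for the adipocyte genes, Ntn1-/- B, was thus the highest for smooth muscle, and WT A was second at both ends. Summed over the 8 markers, the range was 324266 to 841059 normalized reads in Ntn1-/- chimeras and 479975 to 798943 in WT chimeras, none of the 8 was at 0, and 0 of 8 passed limma's threshold between the groups. With each library's smooth muscle level added to limma as a covariate, a choice made with the data in view, the median log2 fold change of the 10 adipocyte genes was -0.27 and 0 of 10 passed. Macrophage markers had in part the same order of libraries as the adipocyte genes, with sums of 41028, 21420, 51151 and 85827 normalized reads over 8 genes in Ntn1-/- replicates A to D and 36357, 78385, 60716 and 70637 in WT replicates A to D. The estimates were lower in Ntn1-/- chimeras for 8 of 8 macrophage markers, with a median log2 fold change of -0.28, near the -0.25 of the adipocyte genes, and 4 of 8 had the same 3 lowest libraries as Adipoq. None of the 8 macrophage markers was at 0, 0 of 8 passed limma's threshold, and Ntn1-/- B was again the lowest library. Their part in the adipocyte levels was not tested.

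**Figure D4:**
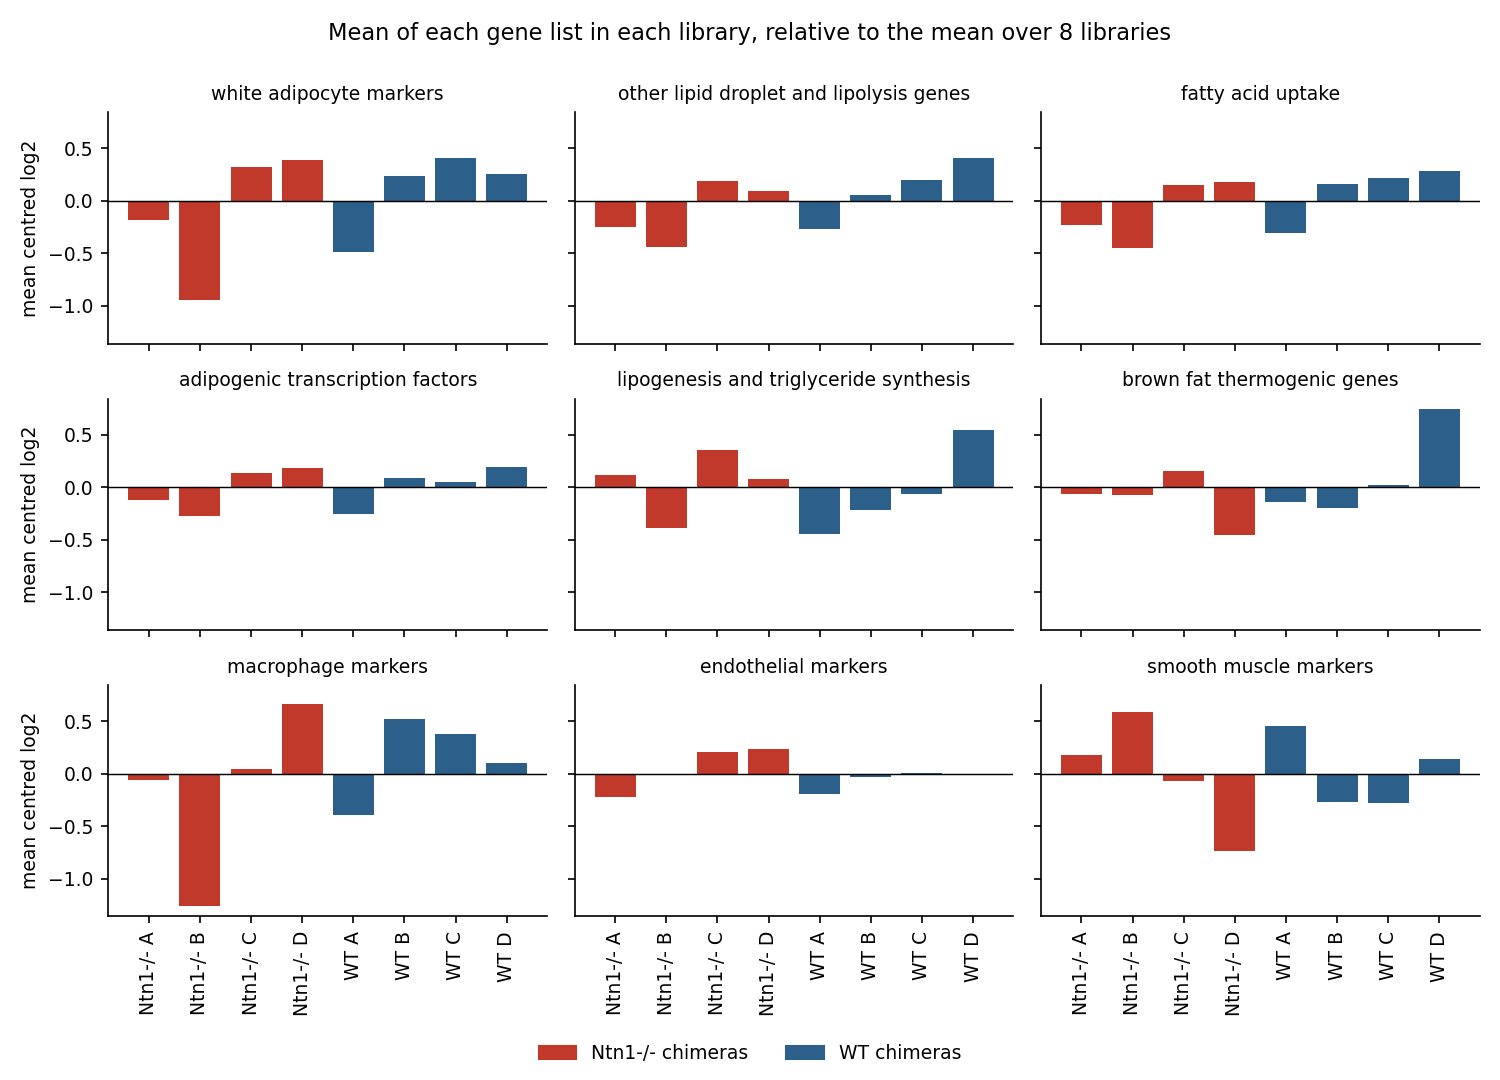
Mean centred log2 level of 9 gene lists (1 panel each) in the 8 libraries, Ntn1-/- in red and WT in blue; 0 is the average aorta. The adipocyte, lipid droplet, fatty acid uptake, adipogenic factor, macrophage and endothelial panels are below 0 in Ntn1-/- A, Ntn1-/- B and WT A. The smooth muscle panel is above 0 there. WT D stands highest in the lipid droplet, fatty acid uptake, adipogenic factor, lipogenesis and brown fat panels.

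The rest of the fat storage pathway was read from lists. Of 15 further lipid droplet and lipolysis genes, 0 passed limma's threshold, 13 had lower estimates in Ntn1-/- chimeras with a median log2 fold change of -0.15, and 8 had the same 3 lowest libraries as Adipoq. Abhd5, the co-activator of ATGL, had 2134, 1341, 2526 and 2896 normalized reads in Ntn1-/- replicates A to D, against 1771, 2986, 3124 and 2502 in WT replicates A to D. G0s2, the inhibitor of ATGL, averaged 2357 ± 1019 normalized reads in Ntn1-/- chimeras and 3373 ± 968 in WT chimeras (SD, n = 4 each), with a log2 fold change of -0.58 (limma, adjusted p = 0.415). Plin2 averaged 6777 ± 1868 in Ntn1-/- chimeras and 9194 ± 2893 in WT chimeras (SD, n = 4 each). In each of these genes the groups overlapped.

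Genes of fatty acid uptake behaved alike, with 0 of 9 past limma's threshold, 7 lower estimates, a median log2 fold change of -0.20 and the same 3 lowest libraries at 6 of 9. Lpl, the lipase that frees fatty acids from circulating lipoproteins, had 36403, 27353, 49009 and 51169 normalized reads in Ntn1-/- replicates A to D, against 27495, 43705, 46574 and 54815 in WT replicates A to D. Slc27a4, a fatty acid transporter, was the 1 gene of the 9 whose groups did not overlap, against 10.5% of all genes. It had 1355 ± 110 normalized reads in Ntn1-/- chimeras and 1610 ± 109 in WT chimeras (SD, n = 4 each, log2 fold change -0.25, adjusted p = 0.253 from limma).

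Among adipokines other than the members, 8 of 10 passed the filter and 0 passed limma's threshold, with a median log2 fold change of -0.10. The adipokine receptors also had 0 of 4 past it. Adipor1 was level across the aortas, at 4497 ± 416 normalized reads in Ntn1-/- chimeras and 4573 ± 169 in WT chimeras (SD, n = 4 each). Adipor2 had 7158, 5296, 8767 and 9125 normalized reads in Ntn1-/- replicates A to D. In WT replicates A to D it had 5891, 8010, 8802 and 7877. It was the 1 receptor of the 4 with the same lowest libraries as Adipoq, against 10.1% of all genes. The leptin receptor Lepr had 127, 297, 144 and 134 normalized reads in Ntn1-/- replicates A to D, against 126, 126, 108 and 144 in WT replicates A to D. Its highest library was thus Ntn1-/- B, where Lep itself was lowest.

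Of 9 adipogenic transcription factors tested, 0 passed limma's threshold, with a median log2 fold change of -0.02, and 3 had groups that did not overlap (Cebpd, Ebf1 and Zfp423), against 10.5% of all genes. Cebpd, an early factor of fat cell formation that also responds to inflammation and glucocorticoids, had 843, 740, 884 and 1182 normalized reads in Ntn1-/- replicates A to D, against 1217, 1788, 1662 and 1338 in WT replicates A to D. Every Ntn1-/- aorta lay below every WT aorta (log2 fold change -0.72, standard error 0.17, adjusted p = 0.248 from limma and 0.0156 from DESeq2). Ebf1, a factor of early adipogenesis and of B cells, had 450, 416, 435 and 455 normalized reads in Ntn1-/- replicates A to D, against 353, 318, 331 and 328 in WT replicates A to D. Every Ntn1-/- aorta lay above every WT aorta (log2 fold change 0.40, standard error 0.07, adjusted p = 0.248 from limma and 0.00116 from DESeq2). Cebpa, the partner of Pparg in mature adipocytes, had 4629, 3777, 8674 and 8153 normalized reads in Ntn1-/- replicates A to D, against 4250, 7151, 8695 and 8148 in WT replicates A to D. It thus followed the adipocyte genes and not Cebpd.

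Of 17 genes of lipogenesis and triglyceride synthesis, 0 passed limma's threshold and 12 had higher estimates in Ntn1-/- chimeras, with a median log2 fold change of 0.11. Scd2, a desaturase of fatty acids, was the 1 gene of the 17 whose groups did not overlap, against 10.5% of all genes. It had 5784 ± 680 normalized reads in Ntn1-/- chimeras and 4189 ± 688 in WT chimeras (SD, n = 4 each). Its log2 fold change was 0.47 (adjusted p = 0.248 in limma and 0.0477 in DESeq2). Of 7 genes of insulin response, 0 passed limma's threshold. Insr, the insulin receptor, was the 1 gene of these 7 whose groups did not overlap, against 10.5% of all genes. It stood at 1993 ± 55.1 normalized reads in Ntn1-/- chimeras and 1705 ± 127 in WT chimeras (SD, n = 4 each, log2 fold change 0.23, adjusted p = 0.249 from limma). These genes are used by many cell types, and in which cells they were read was not measured.

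The word white needs a limit, because brown fat genes were read in the same aortas. Ucp1, the uncoupling protein that defines brown and beige adipocytes, had 12890, 20231, 20683 and 6332 normalized reads in Ntn1-/- replicates A to D, against 18756, 11740, 17302 and 46338 in WT replicates A to D. Its order was unlike that of Adipoq: the reads of Ucp1 per read of Adipoq were 0.900, 2.36, 0.818 and 0.224 in Ntn1-/- replicates A to D and 1.67, 0.476, 0.647 and 2.09 in WT replicates A to D. Of 12 brown fat genes tested, 0 passed limma's threshold, with a median log2 fold change of -0.26, and 1 had the same 3 lowest libraries as Adipoq. White and brown fat cells cannot be told apart as sources of the 8 shared genes in bulk RNA.

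Ntn1, deleted in the donors only, was read in every aorta, at 5273 to 10224 normalized reads in Ntn1-/- chimeras and 6002 to 9870 in WT chimeras, so that its level in whole tissue is no full check of the labels. Markers of other cell types shared the 3 lowest libraries of the adipocyte genes (Ntn1-/- A, Ntn1-/- B and WT A) to a varying extent, against 10.1% of all genes. They did so at 4 of 8 endothelial, 4 of 8 macrophage, 1 of 3 adrenal cortex and 1 of 8 preadipocyte and fibroblast markers tested, and at 0 of those on the skeletal muscle, liver, sympathetic neuron, lymphocyte, smooth muscle and mesothelial lists. limma called 0 genes of any list between the groups. The median log2 fold change was 0.78 for 10 skeletal muscle, 0.75 for 8 thymocyte and lymphocyte and -0.74 for 6 mesothelial markers. For 9 liver markers it was -2.61 (DESeq2 called 5 lower, against 1.47% of all genes). For 9 sympathetic neuron and chromaffin markers it was 1.25 (DESeq2 called 6 higher, against 2.16% of all genes). It was 0.10 for 8 endothelial markers, -0.10 for 8 preadipocyte and fibroblast markers and -0.10 for the 3 of 8 adrenal cortex markers that were tested. Skeletal muscle sums reached 9862 and 9863 normalized reads in Ntn1-/- B and C, against 293 to 3193 in the other 6 libraries. The part of these tissues in the adipocyte values was not tested.

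The direction of several estimates rested on single aortas. Without Ntn1-/- replicate B, 5 of 10 genes had lower estimates and the median log2 fold change was 0.03, while without WT replicate A it was -0.49. Adipoq was then 0.11, Plin1 0.10 and Pparg 0.20 without Ntn1-/- B. No gene passed an adjusted p of 0.05 under any of the 8 omissions.

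**Figure D5:**
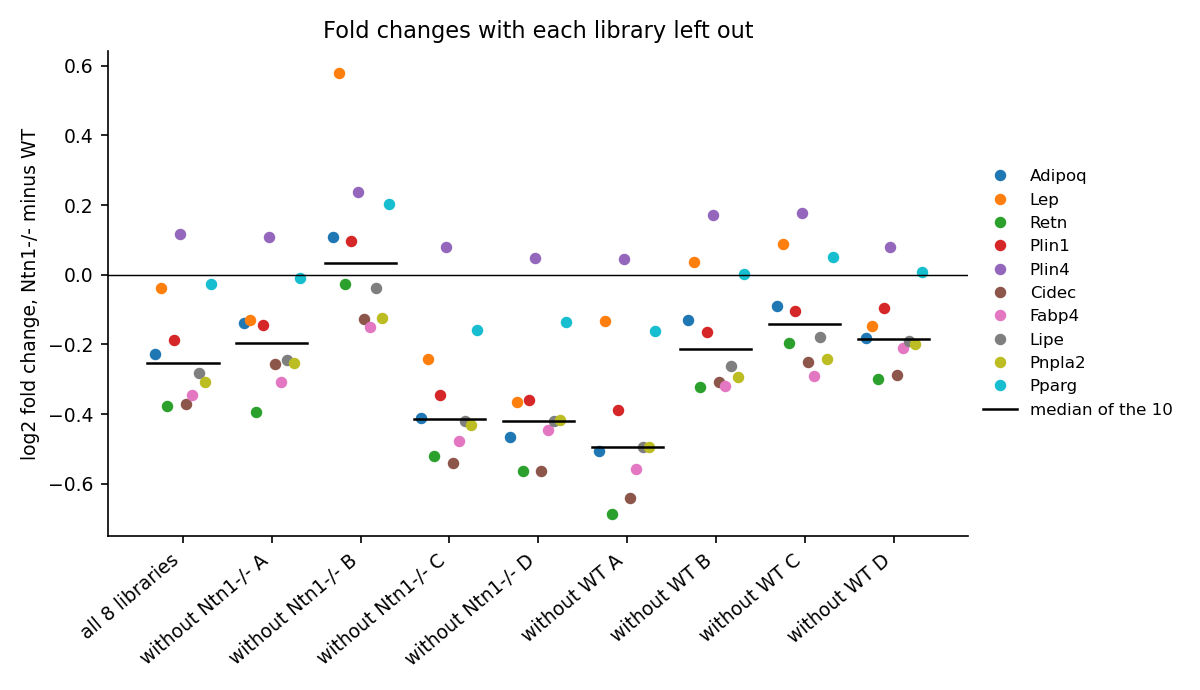
Log2 fold change, Ntn1-/- minus WT, of the 10 genes (coloured points) and their median (black bars) with all 8 libraries and with each library left out in turn. The median lies between -0.49 (without WT A) and 0.03 (without Ntn1-/- B).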

How the data were processed

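Total RNA of 4 Ntn1-/- and 4 WT chimeric aortas was read as single ends of 50 nucleotides. The authors mapped reads to mm9 with TopHat2 2.0.9 and summarised them by gene with featureCounts. Annotation and strand setting are not given in the sources used here, so overlapping genes may share reads. The deposited values are a signal per gene: read counts that the authors scaled by 1 DESeq2 size factor per library. Such values can be compared between libraries, but between genes only per length. The authors' own fold changes, p-values and pathway tables were not used. Undoing the scaling returned whole reads at 100.0% of 187360 values (tolerance 0.001).

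The main test was limma 3.58.1 (R 4.3.3, eBayes with trend) of 4 Ntn1-/- against 4 WT libraries on log2(value + 1), which understates changes of low genes. It used 14931 genes with mean values of 10 or more, Benjamini-Hochberg adjustment and a threshold of 0.05. Alternatives were other pseudocounts, no filter, edgeR 4.0.16, DESeq2 1.42.0 and limma-voom on the whole reads, the replicate letter as a block, omitted libraries, an adjusted p under 0.1 and a smooth muscle covariate. The tests were first tested on simulated data.

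Genes and lists were chosen with earlier results of these data known. Named were the 10 genes, up to 4 genes with the smallest p in every other list, and the 12 genes most like the 10. Abhd5, Cebpa, Lpl, Zfp423, the genes most opposite to the 10 and the genes with 1 library apart were named after their values were seen. Of 178 list symbols, 177 were found. The values of 1 gene of these lists are not reported here.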

Additional observations from a re-analysis of the deposited data

Results flagged for a closer look

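In 180 groups of 4 libraries (90 genes of the adipocyte and fat pathway lists, in each genotype), the gap between the highest or lowest library and its nearest neighbour was compared with the group's range, using Dixon's critical value, which chance exceeds in about 1 in 20 groups. This singled out 22 values, where chance alone gives about 9.0, and genes that move together do so at the same library. None of the 20 groups of the 10 adipocyte marker genes was among them.

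WT replicate D accounted for 12 of the 22. It was high for genes of fatty acid synthesis: Fasn, fatty acid synthase, had 84684 normalized reads there, against 23844 to 25696 in the other 3 WT libraries, Acaca 13562 (against 5414 to 6130), Acly 9946 (3745 to 4304), Elovl6 3896 (1132 to 1328) and Me1 6602 (3713 to 4076). It was also high for genes of brown fat: Cidea had 22016 (11078 to 11807), Cox7a1 5170 (2210 to 2524), Cox8b 13853 (6291 to 7303) and Otop1 1376 (618 to 734). Plin3 had 3502 (2299 to 2390), Cideb 25.9 (8.34 to 10.5) and the adipokine Apln 319 (120 to 146). In the same library Adipoq, at 22157, lay inside the range of the other WT libraries.

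Ntn1-/- replicate B was apart from the other 3 Ntn1-/- libraries for 5 genes. It was low for Scd1, with 69832 normalized reads against 178700 to 185883, for Lpin1, with 2084 (3421 to 3583), and for Gpam, with 631 (895 to 949). It was high for Lepr, with 297 (127 to 144), and for Cideb, with 11.4 (6.07 to 6.98).

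Ntn1-/- replicate C was high for Cidea, with 16038 normalized reads against 10416 to 10691, for Cox8b, with 9192 (5564 to 6168), and for Gpd1, with 51099 (31114 to 33336). WT replicate A was low for Cd36, with 8205 (13726 to 14075), and for Gpihbp1, with 876 (1506 to 1604).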

How the results depend on the processing

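Over 19 alternatives, the 10 genes gave 190 fold changes, of which 20 had the other sign and 0 passed the threshold, with a smallest adjusted p of 0.235. Lep turned to 0.25 with edgeR (TMM), 0.24 with edgeR on DESeq2 size factors, 0.26 with edgeR on every gene with a read, 0.25 with DESeq2 and 0.58 without both Ntn1-/- B and C. Pparg turned to 0.018, 0.015, 0.032, 0.017 and 0.12 in the same order, and Plin1 to 0.0023 without both Ntn1-/- B and C. Leaving out 1 library gave -0.51 to 0.11 for Adipoq, -0.36 to 0.58 for Lep, -0.39 to 0.10 for Plin1 and -0.16 to 0.20 for Pparg. The median of the 10 genes ran from -0.49 to 0.03. The cause was not tested, and the range over omitted libraries shows how far 1 aorta of 4 moved these values.

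Over all genes, limma, edgeR and limma-voom called 0 genes, DESeq2 called 542, and the smooth muscle covariate, added after the data were seen, called 1 (Cebpd, log2 fold change -0.73, adjusted p = 0.0233). Of 252 medians of the 18 other lists, 3 moved beyond their spread. Deviations of same-lettered libraries had correlations of -0.0082 for A, -0.30 for B, 0.15 for C and -0.26 for D. The same letter was the best match for C only. These values gave no sign of pairing by letter for A, B and D, and cannot exclude a batch shared by letter. With the letter as a replicate block, limma called 0 genes, 0 of the 10, with 1806 at an unadjusted p under 0.05, and the median of the 10 was -0.25. The lowest library value of the 10 genes was 59.9 normalized reads, for Lep in Ntn1-/- B.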

Other observations

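Genes whose profile ran most opposite to that of the 10 adipocyte genes were Hcfc1, Zfp111, Ankrd35, Slc2a13, Pik3ca and Frmd6, with a Pearson r of -0.987 to -0.982 over 8 libraries as a measure of likeness. Slc2a13, which encodes a transporter of myo-inositol, had 258, 363, 190 and 177 normalized reads in Ntn1-/- replicates A to D, against 264, 189, 188 and 187 in WT replicates A to D. Frmd6 had 1290, 1848, 1141 and 1123 normalized reads in Ntn1-/- replicates A to D, against 1571, 1197, 1169 and 1208 in WT replicates A to D. In both, the 3 libraries that were low for the adipocyte genes were the 3 highest.

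Of 8 preadipocyte and fibroblast markers, Pi16 was the 1 gene whose groups did not overlap, against 10.5% of all genes. Pi16, a marker of fibroblasts of the adventitia and of adipose progenitors, stood at 11510 ± 2229 normalized reads in Ntn1-/- chimeras and 15779 ± 1018 in WT chimeras (SD, n = 4 each). Its log2 fold change was -0.47 (adjusted p = 0.249 from limma), and limma called 0 of the 8 genes of this list.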
